A study of Rattus norvegicus with 4 samples.

Results

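The Wnt ligands, their receptors and the feedback genes of the pathway were described in RNA sequencing libraries of rat joint cartilage. Members were defined by a list of gene symbols, which named the 19 Wnt ligands, the Frizzled, LRP, Ror and Ryk receptors, the R-spondins and their receptors, the signalling core and the feedback inhibitors. They matched 58 of the 24005 genes in the table of read counts. Axin1 was also sought and found no row under that symbol, so it is not analysed here.

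Of the 4 libraries, 2 were labelled healthy with the treatment label control, and 2 were labelled osteoarthritis with the treatment label XGS. XGS is Xiaogu San, obtained from a hospital of Chinese medicine. The animals were Sprague Dawley rats, an outbred stock, all male, of 8 to 12 weeks and 140 to 230 g. By the series' title the disease was induced with monosodium iodoacetate, a glycolysis inhibitor whose injection into joints harms cartilage. Neither its dose nor the time after injection is given. No library carried the osteoarthritis label without XGS, so disease and treatment cannot be told apart. The design text also speaks of normal mice, although every library is labelled rat. Nothing in the labels places the libraries in separate animals, so a p-value here reflects variation among these samples that could be technical.

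Wnt proteins are secreted ligands that carry a lipid. Binding to a Frizzled receptor with the co-receptor Lrp5 or Lrp6 stops a destruction complex from degrading beta-catenin, which then acts with TCF/LEF factors in the nucleus. Other branches run through Ror and Ryk receptors and planar polarity proteins without beta-catenin. In joints the pathway is known for its part in bone formation and in the maintenance and hypertrophy of chondrocytes, the cells of cartilage.

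The libraries held 24492412 to 28270779 counts. Values below are CPM (counts scaled to library size) after scaling by TMM, a correction for library composition, unless FPKM is named. The labelled tissue was cartilage, and 0 of 9 chondrocyte markers were at 0 in any library. Their summed level was 24296 and 35637 CPM in control replicates 1 and 2 and 4108 and 8190 CPM in osteoarthritis replicates 1 and 2. Much of the chondrocyte sum was Col2a1, with 13919 and 26813 CPM of the control sums. Of the 9 markers, 5 lay below both controls, and Acan, Sox9, Comp and Matn3 overlapped. Acan reached 2703 CPM in osteoarthritis replicate 2, against control values of 493 and 587 CPM. Sox9 and Comp were also above both controls in that library. In osteoarthritis replicate 1, Acan, Sox9 and Comp were below both controls. Markers of other cells also moved with the groups. The 7 erythroid markers summed to 36668 and 31424 CPM among controls and 439 and 1110 CPM among osteoarthritis libraries, and the 7 B lineage markers to 358 and 482 against 20.1 and 36.0 CPM. The 8 neutrophil markers summed to 6846 and 10787 against 97.8 and 547 CPM, with Ltf at 0 in both controls and osteoarthritis replicate 2. The 8 osteoblast and osteocyte markers summed to 927 and 4254 against 59.2 and 109 CPM. Other sums were higher in both osteoarthritis libraries. The 6 smooth muscle and pericyte markers summed to 1633 and 673 against 3415 and 1835 CPM. The 6 endothelial markers summed to 730 and 323 against 1099.9 and 741 CPM. In each of these lists 3 markers lay above both controls and 0 below. The part of these cells in the members higher in osteoarthritis was not tested. The osteoarthritis libraries differed from each other: the 9 adipocyte markers summed to 8434 and 80.5 CPM in replicates 1 and 2, and the 6 tendon markers to 352 and 7522 CPM. In control these sums were 1694 and 676 CPM for adipocytes, where Lep was at 0 in replicate 1, and 2471 and 2469 CPM for tendon. In bulk tissue, fewer cells of a type and less RNA per cell cannot be told apart.

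**Figure D1:**
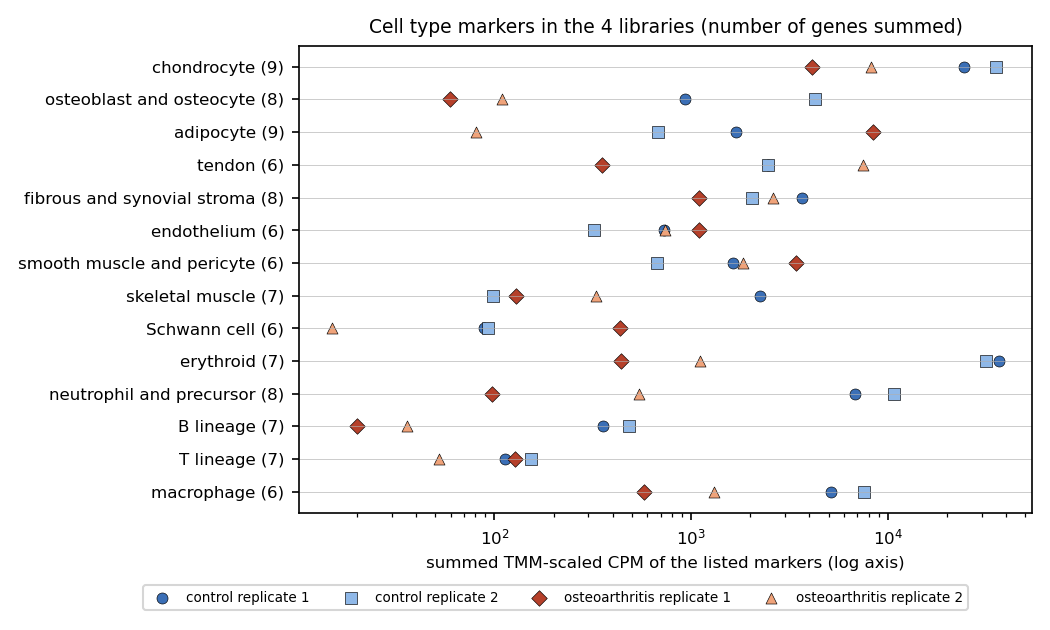
Summed CPM of the markers of 14 cell types (rows, with the number of genes summed) in each library, on a log axis. Chondrocyte, erythroid, neutrophil, B lineage, macrophage and osteoblast marker sums were lower in each osteoarthritis library than in either control. Smooth muscle and endothelial sums were higher in each osteoarthritis library than in either control. Adipocyte and tendon sums separated the 2 osteoarthritis libraries from each other.

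Low counts were distributed differently in the groups, which bears on the members with few reads. In the control libraries 0 and 0 members had 1 to 4 counts, against 6 and 4 in the osteoarthritis libraries. Members at 0 numbered 12 and 11 in control and 4 and 8 in osteoarthritis. A member at 0 in 1 library had at least 20 counts in the other library of its group for 6 members within control (3 in each library) and for 1 within osteoarthritis, Wnt6. Across all genes the same happened 763 and 476 times in control and 20 and 128 times in osteoarthritis. The cause was not tested. A single 0 in a control library is therefore reported with its partner value.

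Promoters were examined for the letters that TCF/LEF factors are known to bind, since Axin2 and Nkd1 are textbook targets of beta-catenin. RefSeq promoters of assembly GRCr8 were found for 45 of the 58 members, and the 250 bases before each start were searched on both strands for CTTTGAA and CTTTGAT. At least 1 of these strings stood in 3 of the 45 (6.67%), against 2537 of 33469 promoters of all genes (7.58%). The 3 were Axin2, Nkd1 and Wnt8a. 4 sequences follow because the account turns on these genes: the feedback inhibitors Axin2, Nkd1 and Nkd2, and Lgr6, the member with the smallest p. They are read 5′ to 3′ on the strand of the gene, and capitals mark the matched strings.
Axin2: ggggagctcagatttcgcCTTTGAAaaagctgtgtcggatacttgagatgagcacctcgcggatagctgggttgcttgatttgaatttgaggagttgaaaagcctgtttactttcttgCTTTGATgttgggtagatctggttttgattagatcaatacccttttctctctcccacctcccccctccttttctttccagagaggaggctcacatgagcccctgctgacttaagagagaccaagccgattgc
Nkd1: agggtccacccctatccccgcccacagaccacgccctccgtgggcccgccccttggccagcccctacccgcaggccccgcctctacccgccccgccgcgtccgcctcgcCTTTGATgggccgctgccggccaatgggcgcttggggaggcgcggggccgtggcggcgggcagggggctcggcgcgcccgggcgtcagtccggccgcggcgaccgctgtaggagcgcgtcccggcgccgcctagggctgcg
Nkd2: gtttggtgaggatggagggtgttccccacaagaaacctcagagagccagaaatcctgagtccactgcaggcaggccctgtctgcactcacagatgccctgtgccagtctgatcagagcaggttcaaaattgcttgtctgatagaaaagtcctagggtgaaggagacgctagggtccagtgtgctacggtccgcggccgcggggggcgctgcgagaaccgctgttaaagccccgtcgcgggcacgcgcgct
Lgr6: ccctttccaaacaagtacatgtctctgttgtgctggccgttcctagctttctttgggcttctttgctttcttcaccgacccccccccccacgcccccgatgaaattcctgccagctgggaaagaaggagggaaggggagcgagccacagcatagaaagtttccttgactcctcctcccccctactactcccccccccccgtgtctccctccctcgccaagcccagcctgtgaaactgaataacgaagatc
The Axin2 window, chr10:94398535-94398784 on the plus strand, held CTTTGAA beginning 232 and CTTTGAT beginning 132 bases before the start. The Nkd1 window, chr19:34722847-34723096 on the minus strand, held CTTTGAT beginning 141 bases before the start. Neither string was in the Nkd2 window, chr1:31272282-31272531 on the plus strand, or in the Lgr6 window, chr13:49095858-49096107 on the minus strand. A match is a description of the letters and does not show that a factor binds there.

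The comparison asked how transcripts of the pathway differed between control cartilage and cartilage labelled osteoarthritis with XGS. The receptors Fzd6, Lrp6, Ror2 and Lgr4 stood higher in each osteoarthritis library than in either control. Ligands went both ways, with Wnt5a higher and Wnt11 and Wnt1 lower. The R-spondin receptor Lgr6 and the transcription factor Lef1 were lower. No member passed edgeR's quasi-likelihood test after Benjamini-Hochberg adjustment over all genes (0 higher and 0 lower, background 0% in each direction), and the smallest adjusted p of a member was 0.0824, which is also the smallest of any gene. With p under 0.05 before adjustment, that test had 9 members higher and 4 lower, where 12.2% and 11.2% of all genes did so. DESeq2, run as an alternative, called 8 members higher (16.7% of those tested, background 7.24%) and 3 lower (6.25%, background 8.26%). Limma-voom called 0. Wnt2b among the higher and Wnt1 among the lower members of both tallies passed the filter only through the group where they were high, so they lend these tallies no support.

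A filter on low counts left 48 members in the fit of 15282 genes. For 17 of these, the osteoarthritis values both exceeded the 2 control values (35.4%), where 30% of all tested genes did so. They lay below both for 9 (18.8%), where 26.5% of all genes did so, and 22 overlapped. Wnt2b and Ror1 among the 17, and Wnt1 and Wnt2 among the 9, passed the filter only through their high group. They lend these counts no support. The median log2 fold change of the 48 was 0.53, also with Wnt1 and Wnt2b at the bounds given for them, and that of all tested genes was 0.15. Without osteoarthritis replicate 2 the median of the members was 0.00 and that of all genes 0.07. The quasi-likelihood test called 3 members higher and 2 lower without that library, and 10 higher and 3 lower without osteoarthritis replicate 1. Over all genes it called 804 higher and 943 lower without osteoarthritis replicate 2, and 1297 and 1105 without osteoarthritis replicate 1.

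**Figure D2:**
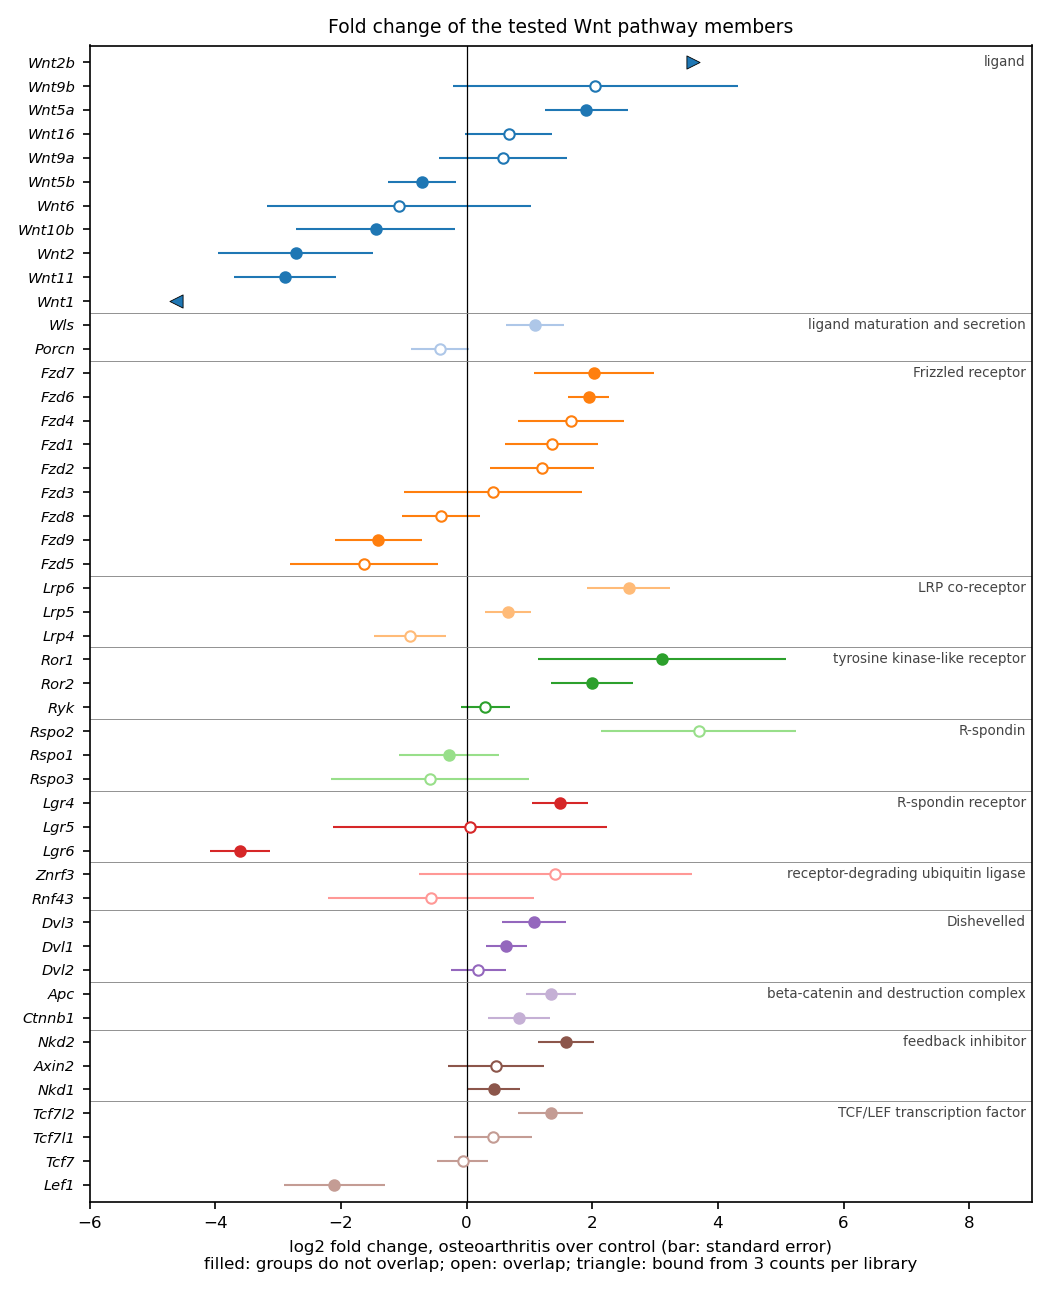
Log2 fold change of osteoarthritis over control (horizontal axis) for the 48 tested members, grouped by role, with the standard error as a bar. Filled points mark the members whose libraries do not overlap between the groups, open points those that overlap, and triangles the bounds of Wnt2b and Wnt1, each at 0 in both libraries of a group; the direction of Tcf7 and Lgr5 flips with the scaling.

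Among the ligands, 11 of 19 were tested. Above both controls lay 2 and below both 5, where 30% and 26.5% of all tested genes did so. Wnt2b among the 2, and Wnt1 and Wnt2 among the 5, passed the filter only through their high group, so they lend these counts no support. Wnt5a, a ligand that mainly signals through Ror receptors without beta-catenin, stood at 2.82 and 6.79 CPM among controls and 13.1 and 22.9 CPM among osteoarthritis libraries. Both osteoarthritis libraries were higher than both controls, and the log2 fold change was 1.90 ± 0.66 (SE; adjusted p by edgeR = 0.18). Wnt5b, its close relative, was lower in both osteoarthritis libraries on the TMM scale, at 8.69 and 14.3 CPM among controls and 7.33 and 6.70 CPM among osteoarthritis libraries. In deposited FPKM it overlapped, at 3.80 and 5.71 in control and 3.82 and 2.58 in osteoarthritis. Its log2 fold change was -0.71 ± 0.54 (adjusted p by edgeR = 0.481), a gap smaller than the distance between the controls.

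Wnt11, a ligand known from cartilage and bone development, had 16.8 and 8.98 CPM among controls and 2.54 and 0.907 CPM among osteoarthritis libraries. Every control value exceeded both osteoarthritis values, and the log2 fold change was -2.89 ± 0.81 (adjusted p by edgeR = 0.139). It was called at -3.84 without osteoarthritis replicate 1 and stood at -2.33, not called, without replicate 2. Wnt1, a ligand that drives bone formation, had 69 and 86 counts in the controls and 0 in both osteoarthritis libraries. In CPM that was 2.43 and 3.30 in control, and with 3 counts per library as the floor the level was at least 24.8-fold lower in osteoarthritis, counting error only. Wnt1 passed the filter only through the controls, so no p is given for it. Wnt10b, a ligand that favours bone over fat formation, had 1.41 and 2.45 CPM among controls and 0.509 and 0.907 CPM among osteoarthritis libraries (adjusted p by edgeR = 0.546). Wnt2 had 2.46 and 4.76 against 0.271 and 0.821 CPM, the latter from 8 and 19 counts. Wnt2 passed the filter only through the controls, so no p is given for it. The chondrocyte, B lineage, erythroid, neutrophil, osteoblast and macrophage marker sums were lower in the same libraries, and their part in these 4 ligands was not tested.

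Wnt2b had 0 counts in both controls and 65 and 11 counts in osteoarthritis, or 2.20 and 0.475 CPM. Against a floor of 3 counts per control library it was at least 12.1-fold higher in osteoarthritis, with the 2 libraries 4.64-fold apart. That floor covers counting error only, and in these controls Wnt10a, Ror1 and Lgr5 stood at 0 beside 78, 54 and 50 counts in the partner library. Wnt2b passed the filter only through the osteoarthritis libraries, so no p is given for it. Wnt16, a ligand of articular cartilage and bone that is known to limit cartilage loss, overlapped between the groups at 11.3 and 3.99 CPM among controls and 9.29 and 15.1 CPM among osteoarthritis libraries (adjusted p by edgeR = 0.613). Wnt9a, needed for joint formation in the embryo, stood at 6.34 and 4.60 CPM in control and on either side of these at 1.93 and 14.4 CPM in osteoarthritis. Wnt9b had 0 and 0.844 CPM among controls and 0.441 and 3.07 CPM among osteoarthritis libraries. Wnt6 had 1.58 and 1.23 CPM among controls and 1.32 and 0 CPM among osteoarthritis libraries.

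Another 8 ligands did not pass the filter. Wnt4 had 0 and 34 counts in control and 3 and 6 in osteoarthritis, and Wnt10a had 78 and 0 in control and 1 and 0 in osteoarthritis, so each was found mainly in 1 control library. Wnt3 had 10 and 2 counts and Wnt8b 4 and 1 counts in the osteoarthritis libraries, with 0 in both controls. Wnt3a, Wnt7a and Wnt7b had 1 count in 1 osteoarthritis library each, and Wnt8a had 0 in all 4.

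Levels of different ligands were compared per gene length, on the deposited FPKM scale. Wnt11 was the highest ligand of control replicate 1 at 6.13 FPKM and Wnt5b that of control replicate 2 at 5.71 FPKM. Wnt16 was the highest in both osteoarthritis libraries, at 3.95 and 4.74 FPKM. Wnt5a ranked 8 in control replicate 1, with 3.05% of the ligand FPKM, and 3 in control replicate 2, with 7.97%, and ranked 3 and 2 in the osteoarthritis libraries, with 23.0% and 25.7%. In osteoarthritis replicate 1 the leading ligands Wnt16, Wnt5b and Wnt5a were at 3.95, 3.82 and 3.44 FPKM, and these differed by less than the distance between the 2 control values of Wnt16 (4.03 and 1.298 FPKM). The FPKM of all 19 ligands summed to 20.4 and 17.2 in control and to 14.95 and 17.3 in osteoarthritis.

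**Figure D3:**
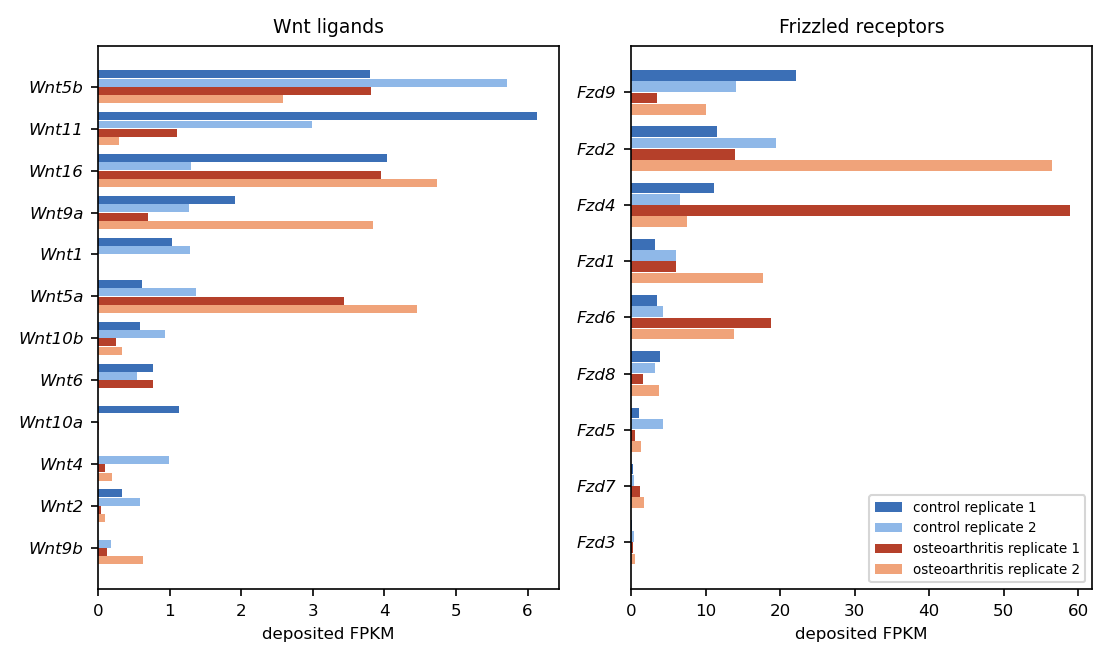
Deposited FPKM of the Wnt ligands (left) and Frizzled receptors (right) that exceeded 0.5 FPKM in any library, with a bar for each library. Wnt11 and Fzd9 were lower and Wnt5a and Fzd6 higher in both osteoarthritis libraries, while Fzd4 stood out in osteoarthritis replicate 1 at 58.9 FPKM and Fzd2 in replicate 2 at 56.5 FPKM.

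Of the proteins that prepare ligands for release, Wls, the carrier that takes lipid-bearing Wnt proteins to the cell surface, had 83.3 and 62.4 CPM among controls and 100.3 and 210.2 CPM among osteoarthritis libraries. Both osteoarthritis libraries were above both controls, and the log2 fold change was 1.09 ± 0.47 (adjusted p by edgeR = 0.241). It was called higher without osteoarthritis replicate 1 (adjusted p by edgeR = 0.0224) and stood at 0.47, not called, without replicate 2. Porcn, the enzyme that attaches the lipid, overlapped at 25.5 and 16.6 CPM among controls and 12.1 and 19.3 CPM among osteoarthritis libraries.

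Frizzled receptors, the membrane-spanning receptors of Wnt ligands, were tested for 9 of 10 genes, with 2 above both controls, 1 below both and 6 overlapping. Of all tested genes, 30% lay above both controls and 26.5% below. Fzd6 had 15.3 and 20.5 CPM among controls and 69.0 and 68.7 CPM among osteoarthritis libraries, so the osteoarthritis libraries lay close to each other and apart from both controls. Its log2 fold change was 1.94 ± 0.33 (adjusted p by edgeR = 0.0835), and ran from 1.69 to 2.18 over 12 alternatives. DESeq2 called it higher (adjusted p by DESeq2 = 0.000291), and limma-voom did not (adjusted p by limma-voom = 0.0789). Fzd7 was higher in both osteoarthritis libraries at a low level, with 0.915 and 1.84 CPM among controls and 3.66 and 7.61 CPM among osteoarthritis libraries (adjusted p by edgeR = 0.275). Fzd9, a receptor with a role in bone formation, was lower in both, with 50.7 and 35.4 CPM among controls and 6.58 and 25.97 CPM among osteoarthritis libraries. Its log2 fold change was -1.40 ± 0.69 (adjusted p by edgeR = 0.292), and it was called lower at -2.70 without osteoarthritis replicate 2 but stood at -0.75, not called, without replicate 1 (adjusted p by edgeR = 0.333). The chondrocyte and osteoblast marker sums were also lower in both osteoarthritis libraries, and their part in Fzd9 was not tested.

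Fzd4 and Fzd2 separated the osteoarthritis libraries from each other. Fzd4, also the receptor of Norrin in blood vessels, had 75.5 and 48.6 CPM in control, 335 CPM in osteoarthritis replicate 1 and 57.9 CPM in replicate 2. It was called higher without replicate 2. Fzd2 had 21.8 and 40.2 CPM in control, 22.05 CPM in osteoarthritis replicate 1 and 121 CPM in replicate 2, and was called higher without replicate 1. Fzd1 followed Fzd2, with 14.01 and 28.9 CPM among controls and 22.1 and 87.7 CPM among osteoarthritis libraries, and the same call. Fzd4 was thus high where the adipocyte and endothelial marker sums were highest (endothelium 730 and 323 CPM in control, 1099.9 and 741 CPM in osteoarthritis, 0 of 6 markers at 0), and Fzd2 and Fzd1 where the tendon sum was highest. Whether these cells carried the receptors was not tested.

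Per gene length, Fzd9 was the highest Frizzled receptor in control replicate 1 (22.1 FPKM) and Fzd2 in control replicate 2 (19.4 FPKM). Fzd4 held 56.3% of the Frizzled FPKM in osteoarthritis replicate 1 and Fzd2 50.0% in replicate 2. Fzd5 had 1.94 and 8.25 CPM among controls and 0.746 and 2.55 CPM among osteoarthritis libraries, Fzd8 18.2 and 16.7 against 6.58 and 19.8 CPM, and Fzd3 0.493 and 1.304 against 0.644 and 1.77 CPM. All 3 overlapped. Fzd10 was not tested, with 0 and 12 counts in control and 2 and 0 in osteoarthritis.

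Of the LRP co-receptors, Lrp6, which passes the Wnt signal on to beta-catenin, had 9.86 and 11.2 CPM among controls and 27.6 and 98.4 CPM among osteoarthritis libraries. Both osteoarthritis libraries were above both controls, although they were themselves far apart, and the log2 fold change was 2.58 ± 0.66 (adjusted p by edgeR = 0.124). It was called higher at 3.19 without osteoarthritis replicate 1 and by DESeq2, with adjusted p from 0.000364 to 0.358 over 12 alternatives. Without osteoarthritis replicate 2 it stood at 1.41 and was not called. Lrp5, the co-receptor linked to bone mass, had 91.4 and 63.1 CPM among controls and 104.9 and 140.1 CPM among osteoarthritis libraries (log2 change 0.66 ± 0.36, edgeR, adjusted p = 0.335). Lrp4, which binds sclerostin, overlapped at 21.1 and 50.1 CPM among controls and 13.1 and 25.1 CPM among osteoarthritis libraries.

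The tyrosine kinase-like receptors Ror1, Ror2 and Ryk are described together, with 2 of the 3 above both controls, where 30% of all tested genes were. Ror2, a receptor of Wnt5a needed for growth plate cartilage, had 8.94 and 8.59 CPM among controls and 15.6 and 54.2 CPM among osteoarthritis libraries, and the log2 fold change was 1.99 ± 0.66 (adjusted p by edgeR = 0.17). The controls nearly coincided and both osteoarthritis libraries lay above them. It was called higher at 2.60 without osteoarthritis replicate 1 and stood at 0.84, not called, without replicate 2. Ror1 had 1.90 and 0 CPM in control, from 54 and 0 counts, and 2.81 and 13.7 CPM in osteoarthritis, so its fold change rests on a control library at 0. Ror1 passed the filter only through the osteoarthritis libraries, so no p is given for it. It lends the count of 2 above both controls no support. Ryk overlapped at 58.9 and 78.6 CPM among controls and 62.9 and 106 CPM among osteoarthritis libraries, and its log2 fold change of 0.30 was -0.12 without osteoarthritis replicate 2. Wnt5a, Ror2 and Ror1 were each highest in osteoarthritis replicate 2, the library with the highest tendon marker sum. Thbs4 and Fmod held 3719 and 3239 CPM of that sum, and 1 of the 6 tendon markers, Tnmd, lay above both controls. Of the 9 chondrocyte markers, Acan, Sox9 and Comp were also highest in that library, and the others were not. The part of either kind of cell was not tested.

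**Figure D4:**
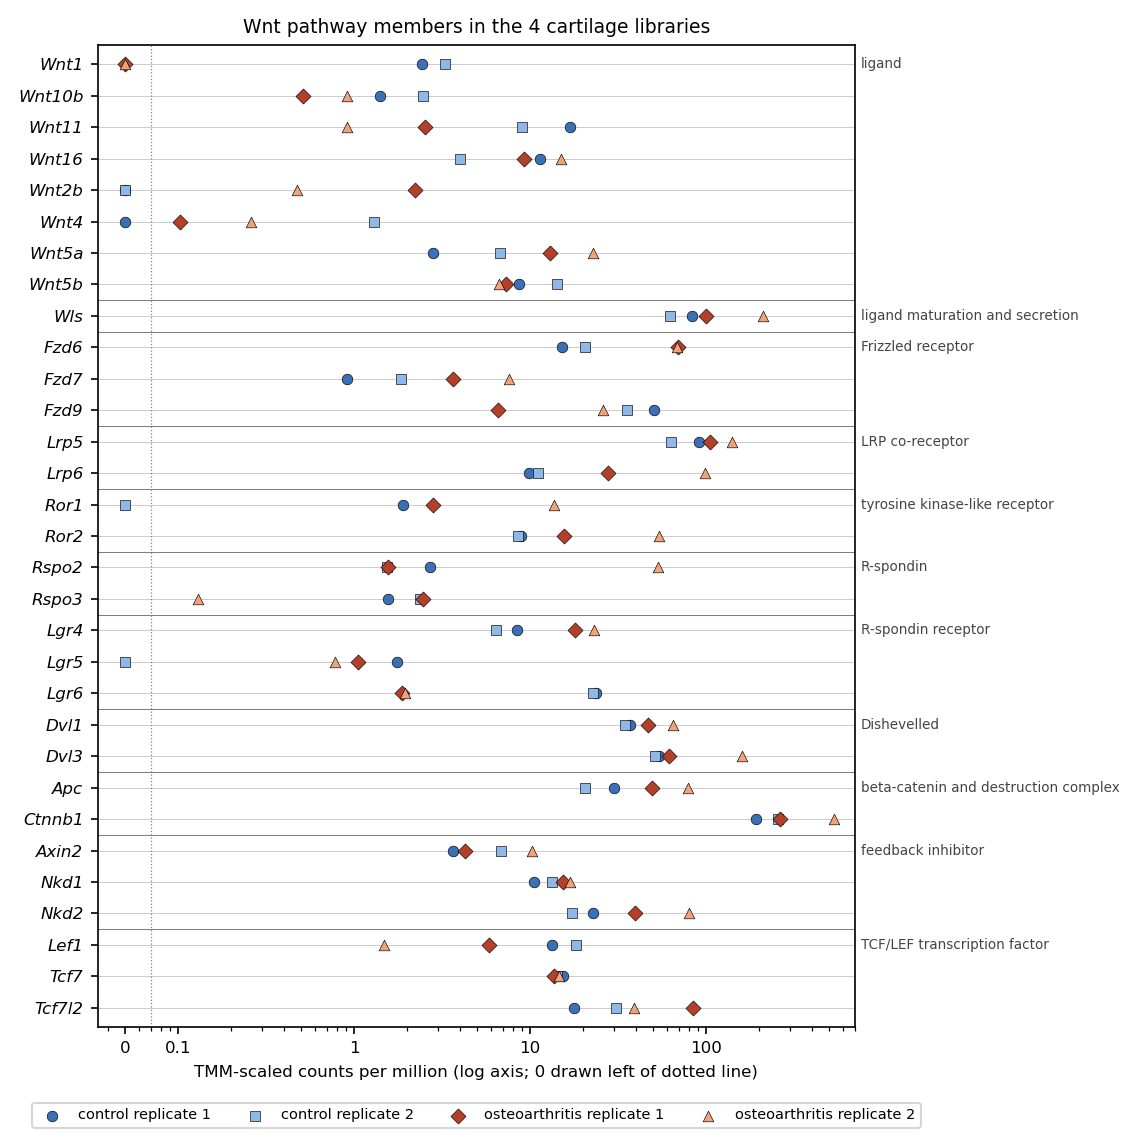
CPM of the 31 members named by rule in each of the 4 libraries (log axis, with 0 drawn left of the dotted line), grouped by role. Fzd6 and Lgr6 show libraries of each group close together and the groups apart, whereas Rspo2, Rspo3 and Lef1 spread between the osteoarthritis libraries.

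R-spondins are secreted proteins that bind Lgr receptors and keep Frizzled receptors from being degraded by Znrf3 and Rnf43. Lgr6 had 23.7 and 22.7 CPM among controls and 1.87 and 1.94 CPM among osteoarthritis libraries, the smallest unadjusted p of the members. The libraries of each group nearly coincided. Its log2 fold change was -3.60 ± 0.48, or 12.2-fold lower (adjusted p by edgeR = 0.0824), and over 12 alternatives it ran from -3.70 to -1.82, with adjusted p from 4.28e-09 to 0.317. The log2 fold change of Lgr6 was -3.63 without control replicate 1 and -3.62 without control replicate 2. Lgr4, the receptor with the broadest expression, went the other way, with 8.38 and 6.37 CPM among controls and 18.1 and 23.2 CPM among osteoarthritis libraries (log2 change 1.49 ± 0.45, edgeR, adjusted p = 0.154). Per gene length, Lgr6 was above Lgr4 in both controls (3.93 against 2.42 and 3.43 against 1.68 FPKM) and below it in both osteoarthritis libraries (0.369 against 6.24 and 0.284 against 5.91 FPKM). Lgr5 had 1.76 and 0 CPM in control, from 50 and 0 counts, and 1.05 and 0.778 CPM in osteoarthritis. Lgr6 was low in the libraries in which the chondrocyte, osteoblast, erythroid, neutrophil and B lineage marker sums were low, and their part was not tested.

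Rspo2 showed the widest gap between the osteoarthritis libraries among the members with counts in both. It had 2.71 and 1.53 CPM in control, 1.56 CPM in osteoarthritis replicate 1 and 53.7 CPM in replicate 2, which were 34.4-fold apart. Its log2 fold change of 3.70 ± 1.55 (adjusted p by edgeR = 0.234) rested on replicate 2 alone, since it was -0.43 without that library. DESeq2 called it higher. Rspo3, known for a role in blood vessels and bone, showed the opposite split, with 1.55 and 2.38 CPM in control, 2.48 CPM in osteoarthritis replicate 1 and 0.13 CPM in replicate 2. Rspo1 had 3.87 and 4.03 CPM among controls and 3.70 and 2.81 CPM among osteoarthritis libraries, and Rspo4 had 0 counts in all 4 libraries. The ubiquitin ligases were low: Rnf43 had 0.176 and 2.07 CPM among controls and 0.644 and 0.864 CPM among osteoarthritis libraries, and Znrf3 0 and 1.11 against 0.814 and 2.16 CPM.

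**Figure D5:**
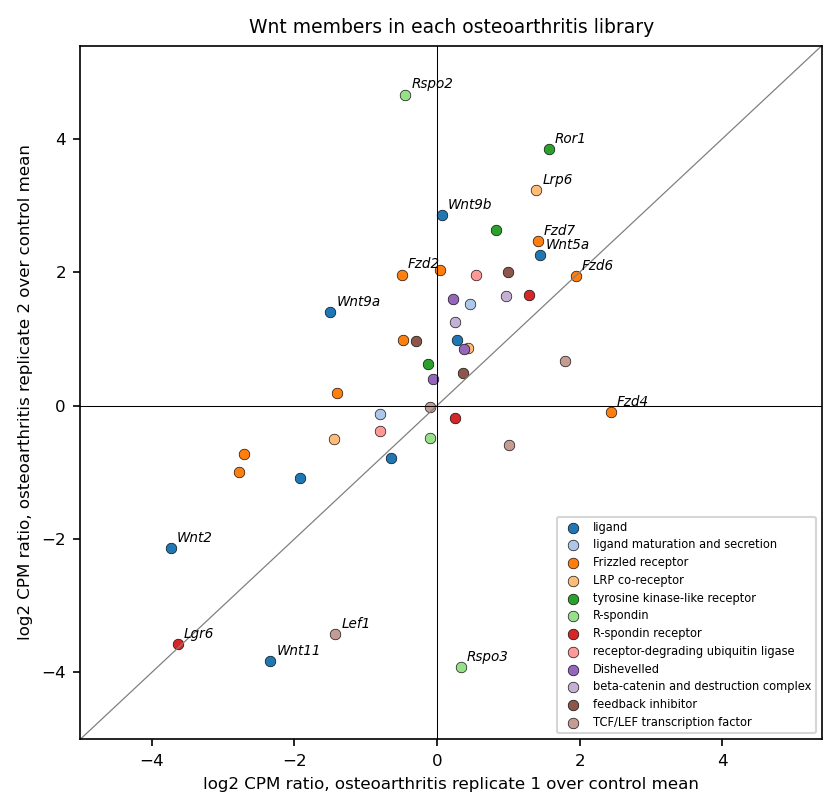
Log2 ratio of CPM to the control mean in osteoarthritis replicate 1 (horizontal) and replicate 2 (vertical) for the 45 tested members with counts in both of these libraries and in a control, coloured by role; the diagonal marks equal ratios. Both ratios were positive for 20 members and both negative for 13, and the other 12 differed in sign, among them Rspo2, Rspo3, Wnt9a and Fzd4.

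The spread between the osteoarthritis libraries was wider for the members than between the controls. The median absolute log2 ratio was 1.10 between the osteoarthritis libraries for 46 tested members and 0.55 between the controls for 43, against 0.62 and 0.47 (15024 and 13798 genes) for all genes tested. More than 4-fold apart in osteoarthritis were 8 of the 46 (17.4%), where 13.0% of all genes were. Between the controls these shares were 2 of the 43 (4.65%) and 6.78%. Genes at 0 in either library of a group were left out of these ratios. That removed Ror1, Lgr5, Wnt9b and Znrf3 from the controls and Wnt6 from osteoarthritis, each at 0 beside counts in the partner library. The control spread may therefore be understated. Replicate 2 was the higher library for Rspo2, Wnt9a, Wnt9b, Fzd2 and Ror1. Replicate 1 was the higher for Rspo3, Fzd4 and Wnt2b.

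Within the cell, all 3 Dishevelled adaptors, which link Frizzled receptors to the destruction complex, had positive log2 fold changes, as did 8414 of the 15282 genes tested. Dvl3 had 53.9 and 51.4 CPM among controls and 61.4 and 159.9 CPM among osteoarthritis libraries (1.07 ± 0.51, adjusted p by edgeR = 0.283), and Dvl1 37.03 and 34.9 against 46.6 and 65.0 CPM (0.64 ± 0.33, adjusted p by edgeR = 0.31). Both lay above both controls, and Dvl3 stood at 0.23 without osteoarthritis replicate 2 and was called at 1.57 without replicate 1. Dvl2 overlapped at 14.9 and 25.2 CPM among controls and 19.2 and 26.4 CPM among osteoarthritis libraries, and its log2 fold change of 0.19 was -0.20 without control replicate 1. Apc, a scaffold of the destruction complex, had 29.9 and 20.5 CPM among controls and 49.2 and 78.7 CPM among osteoarthritis libraries, with no overlap (1.34 ± 0.40, adjusted p by edgeR = 0.152), and it was called at 1.62 without osteoarthritis replicate 1 but not, at 0.98, without replicate 2. Ctnnb1, which encodes beta-catenin, was the member with the highest FPKM in every library. It had 191 and 256 CPM among controls and 265 and 534 CPM among osteoarthritis libraries (0.84 ± 0.49, adjusted p by edgeR = 0.362, and 0.26 without osteoarthritis replicate 2), so the lower osteoarthritis value nearly met the higher control. Transcript levels of Ctnnb1 do not measure beta-catenin protein, which the destruction complex controls.

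The feedback inhibitors restrain the pathway, and Axin2 and Nkd1 among them are known to be induced by beta-catenin. Axin2, the most used of these readouts, overlapped between the groups, with 3.63 and 6.87 CPM among controls and 4.27 and 10.3 CPM among osteoarthritis libraries (0.47 ± 0.76, adjusted p by edgeR = 0.766). The log2 fold change was -0.28 when osteoarthritis replicate 2 was left out. Nkd1, which binds Dishevelled, had 10.5 and 13.3 CPM among controls and 15.4 and 16.8 CPM among osteoarthritis libraries (0.43 ± 0.42, adjusted p by edgeR = 0.593). Nkd2 had 22.7 and 17.3 CPM among controls and 39.8 and 80.3 CPM among osteoarthritis libraries, with no overlap (1.58 ± 0.45, adjusted p by edgeR = 0.144). It was called at 1.98 without osteoarthritis replicate 1 and not without replicate 2 (adjusted p by edgeR = 0.216). Axin2 and Nkd1, which have a searched string in the promoter windows printed here, thus had smaller fold changes than Nkd2, which has none there. That order was not tested.

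Among the TCF/LEF factors, Lef1, also a factor of B and T cell precursors, had 13.3 and 18.3 CPM among controls and 5.87 and 1.47 CPM among osteoarthritis libraries. Both osteoarthritis libraries were below both controls, and the log2 fold change was -2.10 ± 0.80 (adjusted p by edgeR = 0.203), and it was called lower at -3.46 without osteoarthritis replicate 1 but stood at -1.42, not called, without replicate 2. The B lineage marker sum was lower in the same libraries (7 of 7 markers below both controls, none at 0), while the T lineage sum, most of it Cd4, overlapped at 113 and 153 CPM among controls and 128 and 52.0 CPM among osteoarthritis libraries. Of the 7 T lineage markers, 4 (Cd3e, Cd3g, Lck and Cd2) lay below both controls and 6 had a negative log2 fold change. The part of these cells was not tested. Tcf7, another lymphocyte factor, was at 15.4 and 14.2 CPM among controls and 13.8 and 14.6 CPM among osteoarthritis libraries. Its direction flipped with library size alone as the scale. Tcf7l2 was higher in both osteoarthritis libraries, with 17.8 and 30.8 CPM among controls and 84.7 and 38.8 CPM among osteoarthritis libraries (1.34 ± 0.52, adjusted p by edgeR = 0.205), and was called higher at 1.81 without osteoarthritis replicate 2. It stood at 0.63, not called, without replicate 1 (adjusted p by edgeR = 0.486). Tcf7l1 overlapped at 66.5 and 36.0 CPM among controls and 104 and 34.2 CPM among osteoarthritis libraries. For both Tcf7l factors osteoarthritis replicate 1, the library with the highest adipocyte sum, was the highest of the 4.

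Other genes of the pathway were taken from 5 lists of 83 genes, of which 76 were tested. The edgeR quasi-likelihood test called 0 of them in either direction (background 0% in each direction). Before adjustment 11 were higher and 9 lower at p under 0.05, where 12.2% and 11.2% of all genes were, and DESeq2 called 8 higher and 7 lower, where it called 7.24% and 8.26% of all genes. Above both controls lay 32 of the 76 (42.1%) and below both 15 (19.7%), where 30% and 26.5% of all tested genes did so. Notum, Sost, Dkk1, Sfrp5 and Celsr3 passed the filter only through the controls. Notum, Sost, Dkk1 and Sfrp5 are among the lower genes at p under 0.05, by DESeq2 and by position, and Celsr3 by position alone. These genes lend the tallies no support. The median log2 fold change of the 76 was 0.67, and that of all genes 0.15. The lists were chosen with earlier results of these data known, so these shares and medians are a description only. Of 18 tested planar polarity genes and ligand co-receptors, which act beside Ror2 in the branch without beta-catenin, 11 lay above both controls and 1 below. Prickle1, a cytoplasmic polarity protein, had 7.603 and 8.17 CPM among controls and 35.04 and 81.8 CPM among osteoarthritis libraries (2.89 ± 0.51, adjusted p by edgeR = 0.0858). Vangl1, a membrane polarity protein, had 9.75 and 8.67 against 30.4 and 41.0 CPM (1.95 ± 0.37, adjusted p by edgeR = 0.0911), and Prickle2 10.9 and 10.7 against 25.8 and 38.3 CPM (adjusted p by edgeR = 0.12).

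Of 14 tested nuclear cofactors of beta-catenin, 8 lay above both controls (57.1%) and 2 below (14.3%), against 30% and 26.5% of all genes. Crebbp, a histone acetyltransferase, had 36.1 and 36.6 CPM among controls and 119.9 and 136 CPM among osteoarthritis libraries (1.82 ± 0.31, adjusted p by edgeR = 0.0835). Bcl9l, an adaptor of beta-catenin, had 117 and 88.6 against 240.1 and 308 CPM (adjusted p by edgeR = 0.13), and Ctbp2, a corepressor, 23.7 and 14.5 against 55.0 and 40.02 CPM (adjusted p by edgeR = 0.154). The 14 destruction complex genes and kinases were divided, with 4 above both controls (28.6%) and 2 below (14.3%), against the same shares of all genes. Btrc, which marks beta-catenin for degradation, had 45.9 and 32.9 CPM among controls and 26.9 and 25.7 CPM among osteoarthritis libraries (adjusted p by edgeR = 0.356). Gsk3a had 68.9 and 83.2 against 47.6 and 58.4 CPM (adjusted p by edgeR = 0.375), and Csnk1g1 7.25 and 2.84 against 7.53 and 14.9 CPM (adjusted p by edgeR = 0.403).

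Antagonists split, with 4 of 19 tested above both controls (21.1%) and 7 below (36.8%), against 30% and 26.5% of all genes. Notum, Sost, Dkk1 and Sfrp5, which passed the filter only through the controls, are among the 7. Notum, an enzyme that removes the lipid from Wnt proteins, had 9.50 and 12.7 CPM among controls and 0.339 and 0 CPM among osteoarthritis libraries. It passed the filter only through the controls, so no p is given for it. Wif1, which binds Wnt ligands, had 303 and 257 CPM among controls and 13.9 and 2.51 CPM among osteoarthritis libraries (adjusted p by edgeR = 0.0876). Sost, the osteocyte inhibitor sclerostin, had 1.55 and 58.6 CPM among controls and 0.0339 and 0.0432 CPM among osteoarthritis libraries, 1 count in each of the latter. Of 11 tested target genes outside the members, 5 lay above both controls (45.5%) and 3 below (27.3%), against 30% and 26.5% of all genes. Jag1, a Notch ligand, had 20.3 and 10.3 CPM among controls and 134 and 149.8 CPM among osteoarthritis libraries (3.21 ± 0.45, adjusted p by edgeR = 0.0824). Tnfrsf11b, the decoy receptor osteoprotegerin, had 78.9 and 69.2 against 5.36 and 17.6 CPM (-2.69 ± 0.63, adjusted p by edgeR = 0.113). Mitf had 20.6 and 19.4 against 33.8 and 60.6 CPM (adjusted p by edgeR = 0.164).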

How the data were processed

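Polyadenylated RNA of 4 libraries was sequenced after TRIzol extraction and RNeasy purification, per the labels' protocols. The authors deposited raw counts per gene and FPKM values of the same libraries. Per the submitters' processing notes, fastp, TopHat and the build hg38, a human build, were used. Versions, counting tool, annotation and strandedness were not stated, so overlapping genes may share reads. The 67506 deposited FPKM values above 0 equalled count over column total and 1 length per gene, implied by the tables themselves, to a relative difference of at most 2.25e-14, so they are no independent measurement. Depth was 24492412 to 28270779 counts per library, and floors of 3 counts cover counting error only.

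Groups followed the disease state label, with no batch or pairing labelled. Counts were fitted with edgeR 4.0.16 in R 4.3.3 (filterByExpr, TMM, quasi-likelihood F test, two-sided, Benjamini-Hochberg over 15282 genes, threshold 0.05). The common dispersion was 0.391. Standard errors are the fold change over the root of F. No permutation test was used, since 2 against 2 cannot go below p = 0.333. The rule named the 12 members with the smallest p, those with at least 5 CPM in the higher group and no overlap, and 13 by symbol. Other members were also given with their values, by role. Of other pathway lists, up to 3 genes per list by p were named with their values. Members and lists were chosen with earlier results of these data known. Alternatives were DESeq2 1.42.0, limma 3.58.1 (voom, and trend on log2 of FPKM plus 1), other scalings and filters, and fits without each library. Scripts were tested on simulated data. Figures used matplotlib 3.10.9. Promoters came from RefSeq, GRCr8.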

Additional observations from a re-analysis of the deposited data

How the results depend on the processing

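Without a filter on low counts edgeR found 677 genes higher and 751 lower, 5 members higher and 1 lower (Lgr6), and 6 other pathway genes in each direction. DESeq2 called 1107 genes higher and 1262 lower, 8 members higher and 3 lower, and 8 and 7 other pathway genes. Leaving out 1 library at a time gave 0 to 1297 genes higher and 0 to 1105 lower, 0 to 10 members higher and 0 to 3 lower, and 0 to 13 and 0 to 7 other pathway genes. In these fits 20 to 27 members lay above and 13 to 15 below both, over 3 libraries, which overlap less often by construction, and the median of the members was 0.00 to 0.62. A lone library is assumed there to vary like the other group. The remaining settings called 0 genes. With library size alone the median of all genes was 0.27 and of members 0.59, with upper quartile factors 0.05 and 0.40. With library size alone, and also in FPKM, 18 members lay above both controls and 7 below. Of 30 tested members named by rule, the direction turned for Tcf7 with library size alone (0.05) and in FPKM (0.04), for Lgr5 with upper quartile factors (-0.02), without control replicate 2 (-0.93) and without osteoarthritis replicate 1 (-0.17), and without osteoarthritis replicate 2 for Rspo3 (0.35), Axin2 (-0.28) and Rspo2 (-0.43). The fits without 1 library spanned -0.93 to 7.58 for Lgr5, -3.91 to 0.35 for Rspo3, -0.28 to 1.02 for Axin2 and -0.43 to 4.64 for Rspo2. The cause was not tested. No paired analysis was possible because the labels carry no replicate numbers shared between the groups.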
